A study of Mus musculus with 8 samples.

Results

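The genes described here are the signalling machinery of the T cell receptor (TCR), 36 genes chosen by name among the 38215 genes in the deposited tables. They encode the CD3 chains, the coreceptor CD4, the proximal kinases, the adaptors and enzymes behind them, the NFAT transcription factors, the costimulatory receptors CD28 and ICOS, and the phosphatases, ubiquitin ligases and kinases that restrain the signal. RNA was sequenced from FoxP3+ regulatory T cells (Treg) sorted from the bone marrow (BM-Treg, 4 libraries) or the spleen (SP-Treg, 4 libraries) of untreated B6.FoxP3-GFP mice, in which a green fluorescent protein reports Foxp3, and the mice were 12 weeks old. The labels give the genotype of every library as C57Bl/6. By the labels, BM-Treg replicates 1 to 3 came from females and belong to batch 1, while the fourth marrow library and the whole spleen group came from males and belong to batch 3. Labelled sex and batch therefore cannot be told apart from each other, and BM-Treg replicate 4 is the only marrow library that shares them with the spleen. The study's methods state that females were used unless indicated otherwise, which differs from these labels.

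The TCR itself has no enzymatic activity. On binding of antigen, the kinase LCK, carried by CD4, and its relative FYN phosphorylate the CD3 and zeta chains, ZAP70 docks there, and the adaptors LAT and SLP-76 gather PLCG1, VAV1 and other effectors, from which calcium, diacylglycerol and NF-kappaB signals spread to NFAT and other transcription factors. Phosphatases, the kinase CSK, CBL-B, the UBASH3 proteins, CD5 and the diacylglycerol kinases damp the signal at successive steps. In Treg this pathway is needed both for their development in the thymus and for their suppressive function. The comparison asked how the activating and the inhibitory components differed between the tissues, and for this 23 members were classed as activating, 10 as inhibitory and 3 (Ptprc, Cd6 and Sh2d2a), which can act in either direction, as dual.

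The libraries held 12427136 to 21921252 expected counts on genes, and all 36 members passed the filter on low counts, as did 13397 genes in all. Levels are given as CPM, the counts of a gene scaled to a common library size that was normalised by the trimmed mean of M values. The Treg markers Foxp3, Il2ra, Ikzf2 and Ctla4 summed to 5443 to 6117 CPM in BM-Treg, beside 5451 to 6479 CPM in SP-Treg, and none of these 4 genes passed in edgeR or limma-voom, while 1, Il2ra, which encodes a chain of the interleukin receptor that marks Treg, passed in DESeq2 (log2 fold change -0.62 and adjusted p = 0.0803 in edgeR). The CD8 T cell markers Cd8a and Cd8b1 summed to 10.9 to 12.6 CPM in BM-Treg, beside 13.2 to 41.1 CPM in SP-Treg, B cell markers to 10.8 to 13.97 and 6.33 to 95.4 CPM, neutrophil markers to 1.32 to 10.5 and 0.216 to 18.4 CPM, monocyte and macrophage markers to 14.1 to 20.2 and 7.19 to 28.4 CPM, and erythroid markers to 12.6 to 32.5 and 1.80 to 453.9 CPM. The NK cell markers were at 0 in all BM-Treg libraries and at 0.647 to 1.92 CPM in SP-Treg. The CD8 T cell and NK cell sums were higher in each spleen library than in each marrow library, and their part in the results was not tested. The share of counts on mitochondrially encoded genes was 19.2% in SP-Treg replicate 1 and 24.5% to 32.9% in the other libraries. The RNA came from populations of sorted cells, so that fewer cells of a kind and less RNA per cell cannot be told apart.

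Among the 36 members, 8 were lower and 1 was higher in BM-Treg than in SP-Treg at an adjusted p under 0.05 (edgeR quasi-likelihood test, Benjamini-Hochberg adjustment over all 13397 genes tested). The genes that were lower encode the phosphatases PTPN22 and SHP-1 (Ptpn6), the kinases FYN and ZAP70, the phosphatase CD45 (Ptprc), the costimulatory receptors CD28 and ICOS, and the adaptor TSAd (Sh2d2a). The gene that was higher was Ubash3b, which encodes the phosphatase STS-1. These 9 genes are 25% of the members, against 8.75% of all genes tested (5.02% lower and 3.72% higher) and 13.1% of the 5768 genes whose mean level was at least that of the lowest member. Of all genes called, 42.6% were higher in BM-Treg, and 63% were when log2(FPKM + 1) was tested with limma instead. The changes were of modest size, from -0.87 to 0.44 on the log2 scale, and the median log2 fold change of the 36 members was -0.06, beside -0.01 for all genes tested. In the remaining 27 members the adjusted p was 0.0648 or more.

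By class, 4 of the 23 activating members were lower and none was higher, 2 of the 10 inhibitory members were lower and 1 was higher, and 2 of the 3 dual members were lower. The calls were 17.4% of the activating and 30% of the inhibitory members. Beside them stand 8.75% of all genes and 13.1% of genes at or above the level of the lowest member. The activating share was near the latter, and the inhibitory share rests on 10 genes. The median log2 fold change was -0.10 over the activating members and 0.09 over the inhibitory members. These medians moved with the libraries and the scale: the first was -0.045 without BM-Treg replicate 1 and -0.031 with the batch term, and the second was 0.059 without SP-Treg replicate 1, 0.158 without SP-Treg replicate 3, 0.155 with the batch term and 0.217 on log2(FPKM + 1). The inhibitory members thus held the members with the largest falls and also the one called rise. The calls depended on the libraries: Ptpn22, Ptpn6 and Fyn passed in each of the 8 fits that left out a single library, and the number of members called was 4 without BM-Treg replicate 1, without BM-Treg replicate 2 or without SP-Treg replicate 1, and 5 without BM-Treg replicate 3. When batch was added as a term, BM-Treg replicate 4 was the only marrow library compared with the spleen within a batch. None of the 36 members then passed in edgeR, as against 1.93% of all genes. At an unadjusted p under 0.05 were 8 members, a cutoff for which no share over all genes was computed. All 9 called members kept their direction, but their libraries did not overlap, so replicate 4 alone could hardly have reversed it.

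**Figure D1:**
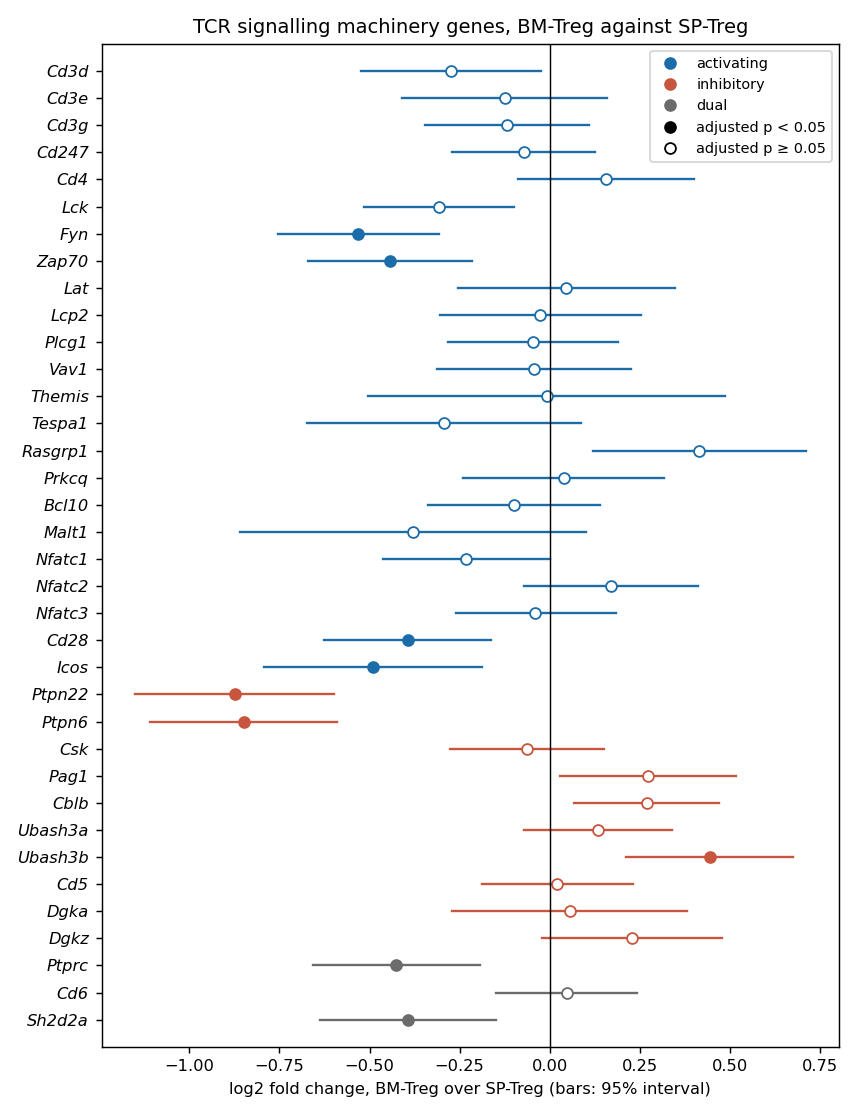
Log2 fold change of BM-Treg over SP-Treg for each of the 36 members, with the 95% interval of the edgeR fit as a bar, in order of role from the CD3 chains at the top, coloured by class, with filled points for an adjusted p under 0.05. The filled points lie between -0.87 (Ptpn22) and -0.39 (Sh2d2a) on the lower side, and the only filled point on the higher side is Ubash3b at 0.44.

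Ptpn22 and Ptpn6 encode phosphatases that take phosphate off LCK, ZAP70 and other proximal substrates. Ptpn22 (chr3:103859795-103912247, GRCm38) was at 108, 120, 119 and 113 CPM in BM-Treg replicates 1 to 4 and at 269, 219, 170 and 185 CPM in SP-Treg replicates 1 to 4. The marrow libraries lay close together and all below the spleen libraries, which spread more widely with replicate 1 at the top. The level fell by 45.4% in BM-Treg, a log2 fold change of -0.87 (SE 0.13, adjusted p = 0.00123, edgeR).

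Ptpn6 (chr6:124720707-124738714) gave 35.5, 43.0, 39.9 and 39.1 CPM in the marrow libraries and 79.2, 76.5, 57.5 and 70.6 CPM in the spleen libraries. In CPM no marrow library came near the lowest spleen library, replicate 3. The level fell by 44.5% (log2 fold change -0.85, SE 0.12, adjusted p = 0.00105, edgeR). SHP-1 and CD45 are also abundant in B and myeloid cells, whose summed markers are given above, and their part in the level of Ptpn6 and Ptprc was not tested. With BM-Treg replicate 4 set alone against the spleen libraries of the same batch, the differences in log2 mean CPM were -0.90 for Ptpn22 and -0.85 for Ptpn6, and with the batch term the adjusted p was 0.0598 and 0.0524 (edgeR).

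The partners of PTPN22 in the control of LCK were not called. Csk, whose product phosphorylates the inhibitory tail of LCK, ranged from 97.5 to 117 CPM in BM-Treg and from 101 to 124 CPM in SP-Treg (log2 fold change -0.06, 95% interval -0.28 to 0.15). Pag1, which encodes the membrane anchor of CSK, ranged from 103 to 138 CPM in BM-Treg and from 83.3 to 104 CPM in SP-Treg (0.27, interval 0.03 to 0.52, adjusted p = 0.163, edgeR), with a narrow overlap between the tissues.

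Fyn and Zap70 were the activating members with the smallest adjusted p. Fyn (chr10:39368855-39565381), a Src family kinase, was at 152, 170, 194 and 151 CPM in BM-Treg and at 259, 240, 223 and 243 CPM in SP-Treg. The tissues did not overlap, and the highest marrow library was replicate 3. The level fell by 30.8% (log2 fold change -0.53, SE 0.11, adjusted p = 0.00607, edgeR), and against the spleen libraries of its own batch BM-Treg replicate 4 differed by -0.68.

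Zap70 (chr1:36761861-36782816), the kinase that binds the phosphorylated CD3 and zeta chains, gave 41.3, 44.4, 49.1 and 41.7 CPM in BM-Treg, beside 62.5, 58.5, 55.4 and 63.7 CPM in SP-Treg. All spleen libraries again lay above all marrow libraries. The log2 fold change was -0.44 (SE 0.11, adjusted p = 0.0183, edgeR), and the adjusted p was 0.0694 without BM-Treg replicate 1, 0.0602 without BM-Treg replicate 2 and 0.0533 without SP-Treg replicate 1.

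Lck missed the threshold although its libraries did not overlap. It was at 195, 212, 223 and 234 CPM in BM-Treg and at 242, 280, 275 and 271 CPM in SP-Treg. The highest marrow library, replicate 4, was close to the lowest spleen library, replicate 1. The log2 fold change was -0.31 (SE 0.10, adjusted p = 0.0648, edgeR; exact two-sided permutation p = 0.0286, the smallest that 4 against 4 libraries can give). Cd4, the coreceptor that brings LCK to the TCR, ranged from 752 to 981 CPM in BM-Treg and from 683 to 874 CPM in SP-Treg (0.16, interval -0.09 to 0.40). In all, 11 members (30.6%) had libraries that did not overlap, the 9 called members together with Lck and Cblb, against 16.2% of all genes tested. Of these members 9 were lower and 2 higher, against 8.57% and 7.58% of all genes.

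**Figure D2:**
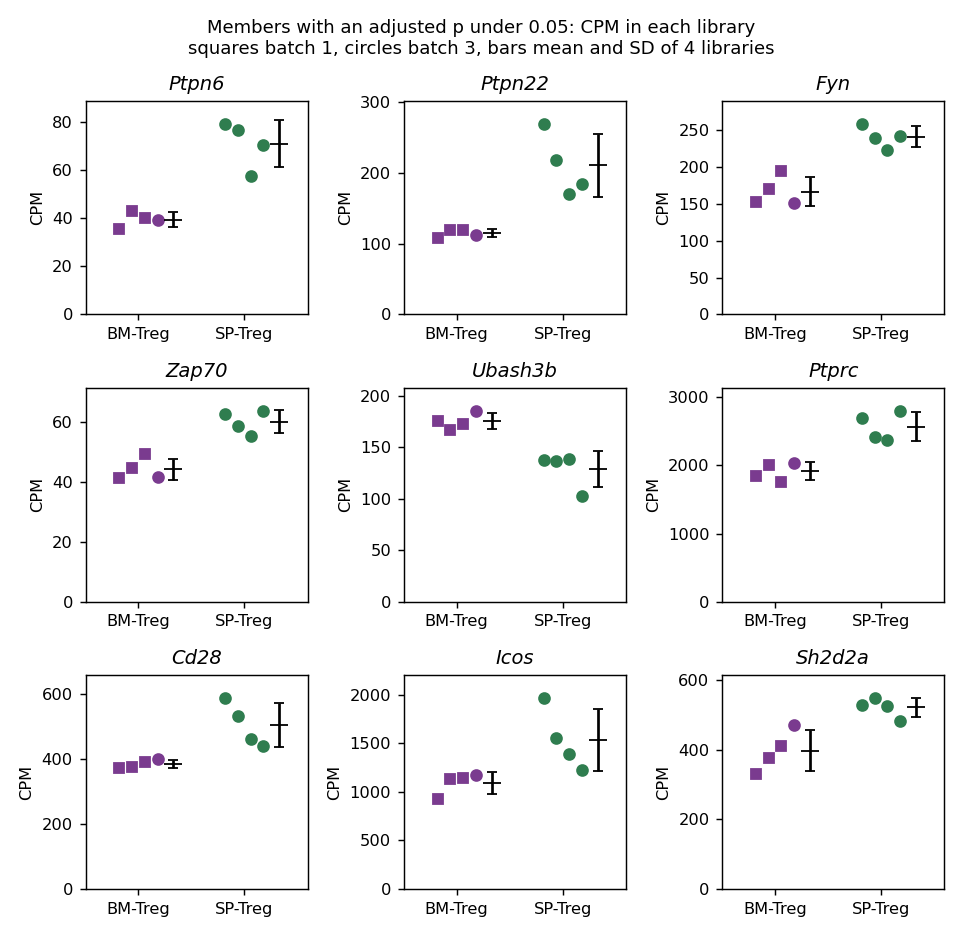
CPM in each library for the 9 members with an adjusted p under 0.05, ordered by adjusted p, with BM-Treg on the left and SP-Treg on the right of each panel, squares for batch 1, circles for batch 3, and black bars for the mean and SD of 4 libraries. In every panel the tissues do not overlap, and the single marrow circle (replicate 4) lies on the marrow side, closest in proportion to the spleen for Sh2d2a at 470 against 483 CPM.

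The sequences just upstream of the start are shown for the called members whose RefSeq start lay within 63 bases of the start in the deposited tables, so that the promoters of the phosphatase genes can be read beside those of Zap70 and Ptprc. RefSeq promoters (GRCm38.p6) were found for 27 of the 36 members, 6 of the 9 called members among them. Each run is the 250 bases before the start on the strand of the gene, 5′ to 3′. Capitals mark CCGGAA (the core of ETS factor sites), TGTGGT (RUNX) and GGGCGG (SP and KLF factors) on either strand, where GGGCGG may overlap itself or the EGR motif GCGNGGGCG.
Ptpn22 (chr3:103859545-103859794, plus strand): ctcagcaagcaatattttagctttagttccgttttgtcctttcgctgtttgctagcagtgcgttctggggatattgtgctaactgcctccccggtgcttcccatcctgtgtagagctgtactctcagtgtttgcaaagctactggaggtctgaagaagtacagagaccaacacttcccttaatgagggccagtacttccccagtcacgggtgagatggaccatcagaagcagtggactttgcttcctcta
Ptpn6 (chr6:124738710-124738959, minus strand): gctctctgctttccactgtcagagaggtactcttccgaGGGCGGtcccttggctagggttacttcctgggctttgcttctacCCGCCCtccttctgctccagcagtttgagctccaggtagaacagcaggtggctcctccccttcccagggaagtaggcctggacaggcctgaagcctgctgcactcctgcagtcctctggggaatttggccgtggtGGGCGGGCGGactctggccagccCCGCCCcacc
Zap70 (chr1:36761548-36761797, plus strand): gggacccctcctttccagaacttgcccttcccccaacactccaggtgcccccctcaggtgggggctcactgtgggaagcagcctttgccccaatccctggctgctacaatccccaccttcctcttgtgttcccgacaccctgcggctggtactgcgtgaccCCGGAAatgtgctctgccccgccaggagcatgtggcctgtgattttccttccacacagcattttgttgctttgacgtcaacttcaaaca
Ptprc (chr1:138175306-138175555, minus strand): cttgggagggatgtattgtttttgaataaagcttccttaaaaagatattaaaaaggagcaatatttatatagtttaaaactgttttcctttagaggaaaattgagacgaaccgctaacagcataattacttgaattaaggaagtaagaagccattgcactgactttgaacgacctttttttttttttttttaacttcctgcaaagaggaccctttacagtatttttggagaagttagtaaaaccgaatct
Ptpn6 held GGGCGG 5 times, with 63.2% G and C in all, while Ptpn22 and Ptprc, with 49.2% and 31.6%, held none of the 3 motifs, and Zap70 held CCGGAA once. Another Ptpn6 transcript starts downstream, at chr6:124733154, and its promoter is not shown. It held a mean of 23.3% of the estimated counts of the gene in BM-Treg and 35.6% in SP-Treg. The shares were 32.3%, 27.3%, 33.5% and 0% in BM-Treg and 16.5%, 49%, 43.9% and 32.9% in SP-Treg. The tissues overlapped (exact two-sided permutation p = 0.3143), and BM-Treg replicate 4 alone was at 0%. For members the start nearest to that in the deposited tables was taken, and for all promoters the first listed of each gene. GGGCGG was found in 12 of the 27 member promoters (44.4%) and in 32.9% of all 27025 promoters of that length, CCGGAA in 1 of 27 (3.7%) and 12.2%, and TGTGGT in 1 of 27 (3.7%) and 14.2%. The short NFAT motif GGAAAA was found in 4 of 27 member promoters (14.8%) and 20.6% of all promoters, the AP-1 motif TGANTCA in 0 of 27 and 6.87%, the EGR motif in 1 of 27 and 4.65%, and the E-box CACGTG and the CRE motif TGACGT each in 2 of 27 (7.41%), against 6.05% and 6.56%. The largest falls thus lay in genes whose promoters differed in composition and in these motifs, and a match is a description of the letters only.

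Ptprc, Cd28 and Icos were called lower with adjusted p closer to the threshold. Ptprc (chr1:138062861-138175305), which encodes the phosphatase CD45 that both activates and restrains LCK, was at 1839, 2006, 1762 and 2042 CPM in BM-Treg and at 2694, 2414, 2367 and 2799 CPM in SP-Treg. The tissues were well apart (log2 fold change -0.43, SE 0.11, adjusted p = 0.0244, edgeR). The adjusted p was 0.073, 0.0666 and 0.0685 without BM-Treg replicates 1, 2 and 3 and 0.0606 and 0.0553 without SP-Treg replicates 1 and 4.

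Cd28 and Icos are neighbours on chromosome 1, 204.6 kb apart, and encode related receptors that add to the TCR signal. Cd28 (chr1:60716800-60773359) was at 374, 376, 391 and 400 CPM in BM-Treg and at 589, 534, 463 and 440 CPM in SP-Treg. The marrow libraries were tightly grouped below a wide range in the spleen. The log2 fold change was -0.39 (SE 0.11, adjusted p = 0.0355, edgeR).

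Icos (chr1:60977927-61000320) was at 927, 1130, 1139 and 1169 CPM in BM-Treg and at 1964, 1558, 1389 and 1221 CPM in SP-Treg. The lowest spleen library was little above the highest marrow library, and the order of the spleen libraries was that of Cd28. The log2 fold change was -0.49 (SE 0.14, adjusted p = 0.0439, edgeR). Ctla4, which encodes the inhibitory receptor of the same family and lies between them, had a log2 fold change of -0.21 (adjusted p = 0.322). The calls of Cd28 and Icos held only in the fits without SP-Treg replicate 3 and without SP-Treg replicate 4. In the other 6 fits that each left out 1 library (BM-Treg replicates 1 to 4 and SP-Treg replicates 1 and 2) the adjusted p was 0.106, 0.109, 0.0748, 0.0569, 0.107 and 0.0941 for Cd28 and 0.142, 0.0983, 0.0781, 0.0641, 0.144 and 0.0931 for Icos, in that order (edgeR).

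Sh2d2a (chr3:87846755-87855722), which encodes the LCK-binding adaptor TSAd, was at 331, 377, 410 and 470 CPM in BM-Treg and at 527, 548, 526 and 483 CPM in SP-Treg. Replicate 4 of BM-Treg was the nearest to the spleen. The log2 fold change was -0.39 (SE 0.11, adjusted p = 0.0448, edgeR), and it was -0.15 between BM-Treg replicate 4 and the spleen libraries of the same batch. The call held without BM-Treg replicate 4 and without SP-Treg replicate 4. It was lost without each of BM-Treg replicates 1, 2 and 3 (adjusted p = 0.154, 0.135 and 0.0802) and SP-Treg replicates 1, 2 and 3 (0.0973, 0.109 and 0.0781). Cd6, the third dual member, which encodes a scaffold receptor 50.4 kb from Cd5, ranged from 167 to 197 CPM in BM-Treg and from 173 to 184 CPM in SP-Treg (0.05, interval -0.15 to 0.24).

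Ubash3b (chr9:41011098-41161697) was the only member called higher. It encodes STS-1, a phosphatase that acts on ZAP70. It was at 175, 167, 173 and 185 CPM in BM-Treg and at 137, 137, 139 and 103 CPM in SP-Treg. Each marrow library was above each spleen library, of which replicate 4 stood low. The level was 35.9% higher (log2 fold change 0.44, SE 0.11, adjusted p = 0.0197, edgeR). The adjusted p was 0.0515 without BM-Treg replicate 4, and the log2 fold change was 0.35 (adjusted p = 0.0382) without SP-Treg replicate 4.

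The other members of this group of inhibitors lay on the same side without passing. Cblb, whose product is a ubiquitin ligase that limits activation without costimulation, was at 312, 299, 303 and 262 CPM in BM-Treg and at 237, 242, 259 and 239 CPM in SP-Treg. The tissues were separated by a narrow margin between BM-Treg replicate 4 and SP-Treg replicate 3 (log2 fold change 0.27, SE 0.10, adjusted p = 0.0957, edgeR). Ubash3a, the lymphoid paralogue of Ubash3b, ranged from 96.5 to 102 CPM in BM-Treg and from 81.4 to 101 CPM in SP-Treg (0.13, interval -0.07 to 0.34). Cd5, an inhibitory receptor that is set by the strength of TCR signalling in the thymus, was at 317 to 385 CPM and 326 to 353 CPM (0.02, interval -0.19 to 0.23).

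**Figure D3:**
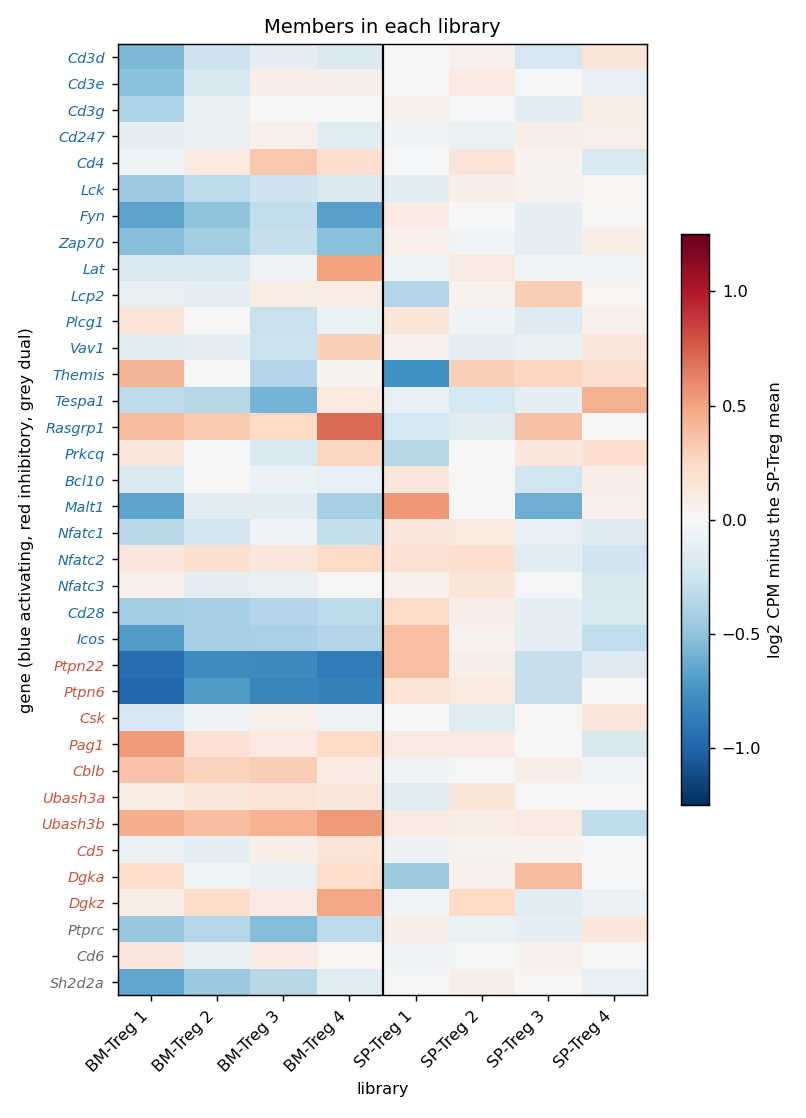
Level of each member (rows) in each library (columns), as log2 CPM minus the mean of the 4 SP-Treg libraries, blue for lower and red for higher, with gene names coloured by class. Ptpn22 and Ptpn6 are dark blue in all 4 BM-Treg columns, Ubash3b is red in all 4, and rows such as Themis and Lat are set by single libraries.

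None of the 4 receptor chains passed in edgeR, DESeq2 or limma-voom (1, Cd3d, had an unadjusted p under 0.05 in each), and all 4 log2 fold changes were below 0, between -0.27 and -0.07. Cd3d, Cd3g and Cd3e, which lie together on chromosome 9 with gaps of 1.4 and 18.3 kb, had log2 fold changes of -0.27 (adjusted p = 0.170), -0.12 and -0.13. Cd3e ranged from 1026 to 1565 CPM in BM-Treg and from 1376 to 1602 CPM in SP-Treg. BM-Treg replicate 1 was the lowest marrow library for all 3 of these genes. Cd247, the zeta chain, was at 133 to 154 CPM and 140 to 155 CPM (-0.07, interval -0.27 to 0.12). It overlaps Pou2f1 on the opposite strand, which carried 106% of its counts, and since no source used here says that reads were counted by strand, its value is uncertain.

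The 6 adaptors and effectors (Lat, Lcp2, Plcg1, Vav1, Themis and Tespa1) did not pass in these tools either, with 0 at an unadjusted p under 0.05. Lcp2, which encodes the adaptor SLP-76, was at 571 to 663 CPM in BM-Treg, beside 482 to 770 CPM in SP-Treg (log2 fold change -0.03, interval -0.31 to 0.25). Lat, the membrane scaffold, was at 136, 136 and 149 CPM in BM-Treg replicates 1 to 3 and at 219 CPM in replicate 4, beside 150 to 168 CPM in SP-Treg (0.05, interval -0.26 to 0.35). Plcg1, which cleaves phosphoinositide, and Vav1, an exchange factor, had log2 fold changes of -0.05 and -0.04, and Plcg1 overlaps Zhx3 on the opposite strand, which carried 52.3% of its counts. The thymocyte adaptors Themis and Tespa1 were among the lowest members, with wide intervals (-0.01, interval -0.50 to 0.49, and -0.29, interval -0.67 to 0.09).

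Downstream of PLCG1, none of the 4 members of the diacylglycerol and NF-kappaB arm and none of the 3 NFAT genes passed in edgeR or limma-voom, with an unadjusted p under 0.05 for Rasgrp1 and Nfatc1, and DESeq2 called Rasgrp1. Rasgrp1, the exchange factor that turns diacylglycerol into RAS activation, was at 346 to 477 CPM in BM-Treg, beside 250 to 375 CPM in SP-Treg, with an overlap through SP-Treg replicate 3 alone. Its log2 fold change was 0.41 (SE 0.14, adjusted p = 0.0791, edgeR), and without that library it was 0.55 (adjusted p = 0.0188). Dgka and Dgkz, the kinases that remove diacylglycerol, had log2 fold changes of 0.06 (interval -0.27 to 0.38) and 0.23 (interval -0.02 to 0.48). Dgkz overlaps Gm9821 on the opposite strand, which carried 11.3% of its counts.

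Prkcq, Bcl10 and Malt1, which lead to NF-kappaB, had log2 fold changes of 0.04, -0.10 and -0.38. Malt1 varied widely in the spleen, from 231 to 514 CPM, and its interval was -0.86 to 0.10. Nfatc1, Nfatc2 and Nfatc3 had log2 fold changes of -0.23 (interval -0.46 to -0.00, adjusted p = 0.214), 0.17 and -0.04.

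Within members, the shares of single transcripts were also compared, and Nfatc1 is a gene known to start at separate promoters. Its most abundant transcript made up 63.7%, 63.0%, 66.7% and 55.2% of the estimated counts of the gene in BM-Treg and 78.4%, 72.0%, 71.1% and 72.5% in SP-Treg, while another transcript, which starts 4885 bases upstream, made up 18.2%, 17.4%, 16.3% and 20.2% in BM-Treg and 9.7%, 10.1%, 13.4% and 15.0% in SP-Treg. Neither pair of ranges overlapped. A further Nfatc1 transcript starts at chr18:80712766, also upstream of the most abundant one, which starts at 80708173. It made up 14.9%, 18.7%, 17% and 0% in BM-Treg and 12%, 17.9%, 15.5% and 12.5% in SP-Treg. These ranges overlapped, and BM-Treg replicate 4 alone was at 0%. Whether use of the upstream starts as a group differed between the tissues was not tested. For a Fyn transcript the shares were 15.5%, 12.8%, 15.3% and 0.4% in BM-Treg and 22.4%, 17.3%, 16.5% and 21.0% in SP-Treg. That Fyn transcript, the most abundant Nfatc1 transcript and the one 4885 bases upstream were the only 3 without overlap. In all, 42 transcripts in 17 members were tested. For each of the 3, the exact two-sided permutation p was 0.0286 (adjusted p = 0.40). A p of 0.0286 is the smallest that 4 against 4 libraries can give. With 3 transcripts at that value none could pass the adjustment, so the test cannot decide whether these shares differ. The Nfatc1 shares belong to the same gene and depend on each other, and no share over all transcripts was computed. Shares between overlapping transcripts are estimates of the counting program from reads of 80 nt.

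The balance of the classes was expressed, for each library, as the mean log2 CPM over the 23 activating members minus that over the 10 inhibitory members. It was 0.27, 0.34, 0.36 and 0.39 in BM-Treg and 0.44, 0.40, 0.40 and 0.52 in SP-Treg. The mean was 0.34 ± 0.05 (SD, n = 4) in BM-Treg, beside 0.44 ± 0.06 (SD, n = 4) in SP-Treg, a difference of -0.10 on the log2 scale. The highest marrow library, replicate 4, lay just below the lowest spleen library. Replicate 4 is the only marrow library of the spleen batch, at 0.39 beside the spleen mean of 0.44. Its activating mean, 7.68, lay within the spleen range of 7.66 to 7.75. The activating mean was 7.58 in BM-Treg and 7.71 in SP-Treg, and the inhibitory mean was 7.24 and 7.27. With the median over members in place of the mean the difference was -0.16 and the tissues overlapped. They also overlapped when Cd6 and Sh2d2a were classed as inhibitory and Ptprc as activating, with a difference of -0.088. BM-Treg replicate 4 was then at 0.379 and SP-Treg replicate 3 at 0.377, so the separation of the tissues depended on the classing.

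**Figure D4:**
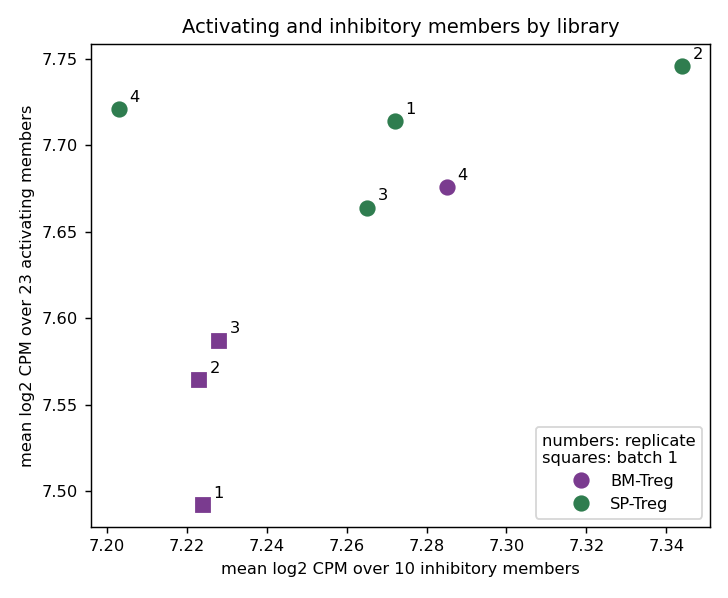
Mean log2 CPM over the activating members (vertical axis) against that over the inhibitory members (horizontal axis), with 1 point per library numbered by replicate and squares for batch 1. The BM-Treg squares lie at 7.49 to 7.59 on the vertical axis, BM-Treg replicate 4 at 7.68 among the SP-Treg points at 7.66 to 7.75, while the horizontal ranges of the tissues overlap.

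Levels of single genes were compared with each other per length, in FPKM, fragments scaled by gene length and library size. The balance above was taken in CPM, so its level in a tissue also depends on gene lengths. On log2(FPKM + 1) its mean was 0.554 in BM-Treg and 0.695 in SP-Treg, a difference of -0.141. Cd3e was the highest member in both tissues, with a mean of 1018 FPKM in BM-Treg and 1064 FPKM in SP-Treg, and Themis the lowest, with 6.84 and 6.90 FPKM, beside a median of 8.29 FPKM over all genes tested. Cd4 was at 302 and 259 FPKM, where Cd8a was at 0.37 and 2.77 FPKM. The order was largely shared, and Ptpn22 moved from place 16 in SP-Treg to place 24 in BM-Treg, Fyn from 12 to 18, Ptpn6 from 25 to 31 and Rasgrp1 from 22 to 13. For Ptpn6 and Icos, apart in CPM, the tissues overlapped in FPKM. Ptpn6 was at 33.07 FPKM in BM-Treg replicate 2 and 32.65 in SP-Treg replicate 3. Icos was at 437.7 FPKM in BM-Treg replicate 3 and 429.5 in SP-Treg replicate 4.

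**Figure D5:**
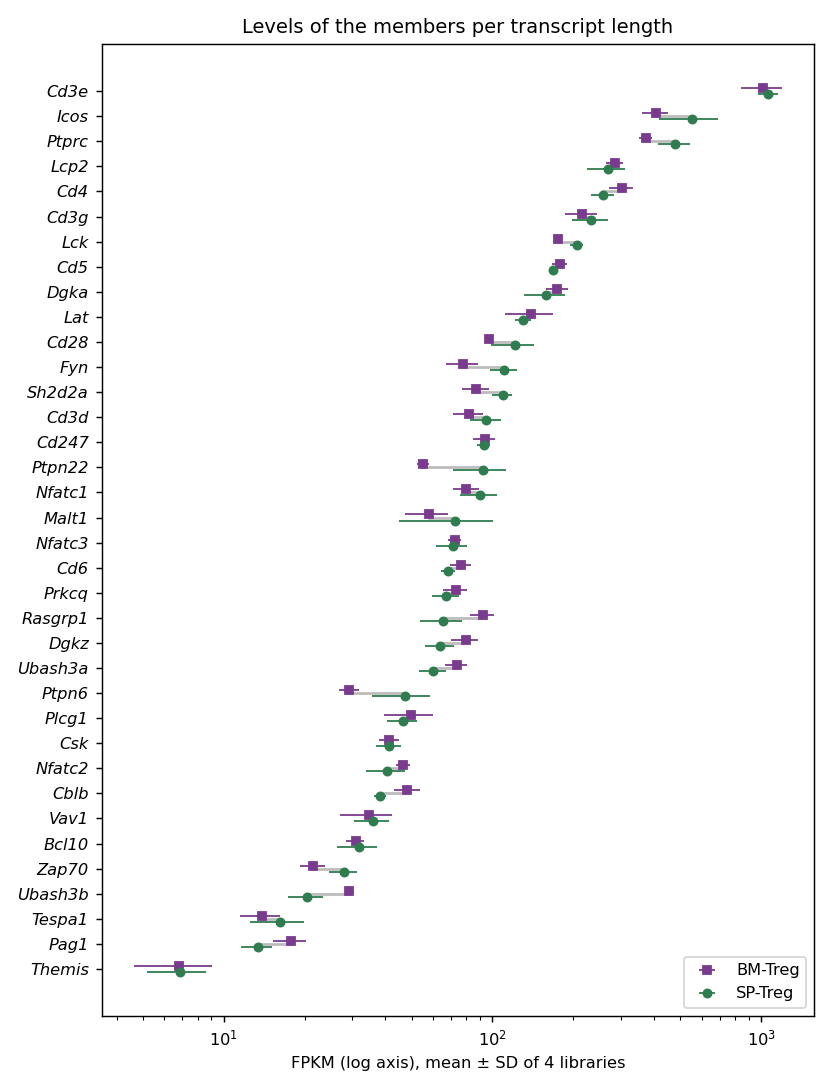
Mean level of each member in FPKM on a log axis, with the SD of 4 libraries as bars, squares for BM-Treg and circles for SP-Treg, sorted by the SP-Treg mean. The members span from Themis near 6.9 FPKM to Cd3e at 1064 FPKM, and the widest gaps between the tissue means are those of Ptpn22 and Ptpn6.

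Other genes of the pathway were taken from 3 lists of 63 genes, chosen with earlier results of these data known, of which 62 were tested. In all 7 passed (11.3%, against 8.75% of all genes), 3 lower and 4 higher in BM-Treg. None of 29 further activating genes passed in edgeR or limma-voom (9 had an unadjusted p under 0.05 in edgeR), and DESeq2 called 1. The share of all genes at that unadjusted cutoff was not computed, so these 9 cannot be set against it. Of 15 calcium and calcineurin genes, Itpr3, a channel that releases calcium from the endoplasmic reticulum, and Calm2, a calmodulin gene, were higher (log2 fold changes 0.42 and 0.40, adjusted p = 0.046 and 0.036, edgeR). The call of Itpr3 held only without BM-Treg replicate 3 and without SP-Treg replicate 3, with an adjusted p of 0.0714 to 0.114 without each of the other 6 libraries, and Calm2 was lost without BM-Treg replicates 3 or 4 or SP-Treg replicates 3 or 4 (0.0784 to 0.0942). The inhibitory list held the remaining calls, 5 of 18 tested, and these went in both directions.

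Lax1 and Sla, which encode adaptors that damp the signal, and Spred1, which encodes an inhibitor of RAS signalling, were lower in BM-Treg. Lax1 was at 33.4 ± 7.0 CPM (SD, n = 4) in BM-Treg, beside 70.1 ± 12.8 CPM in SP-Treg (log2 fold change -1.08, adjusted p = 0.00161), Sla at 499.6 ± 42.4 and 731 ± 138 CPM (-0.55, adjusted p = 0.0166) and Spred1 at 5.59 ± 0.94 and 16.7 ± 2.8 CPM (-1.57, adjusted p = 0.000361, edgeR). Sit1 and Dok2, which encode further inhibitory adaptors, were higher, at 30 ± 7.3 against 17.5 ± 2.8 CPM (0.77, adjusted p = 0.0137) and 63.8 ± 7.2 against 40.7 ± 2.7 CPM (0.65, adjusted p = 0.00299, edgeR). Without single libraries these 5 calls held, except that of Sla without BM-Treg replicate 1 (adjusted p = 0.0646) and replicate 2 (0.052). With the batch term Sit1, Dok2 and Spred1 passed (adjusted p = 0.0177, 0.0473 and 0.0265, edgeR).

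Among 11 genes that TCR stimulation is known to induce, 5 were lower in BM-Treg, none was higher (against 5.02% and 3.72% of all genes tested), and the median log2 fold change was -0.67. The list was chosen with earlier results of these data known. The study had already reported lower Irf4 from these data. It had also predicted from them that MYC and TCR activity were lower in BM-Treg. The counts are therefore a description and no independent support. Egr2, a transcription factor induced through NFAT, was at 8.39, 18.04, 17.8 and 10.2 CPM in BM-Treg and at 86.8, 87.9, 51.7 and 65.1 CPM in SP-Treg. The tissues were far apart (log2 fold change -2.41, SE 0.28, adjusted p = 0.00131, edgeR). The others were Irf4 (-1.14), Myc (-1.04), Egr1 (-1.02) and Egr3 (-0.86), while Nr4a1, an immediate early gene of the pathway, was at 71.8 ± 23.9 CPM in BM-Treg, beside 79.0 ± 14.4 CPM in SP-Treg (-0.14, interval -0.63 to 0.36). Egr1, Egr2 and Irf4 passed whichever single library was left out, and Egr2 and Irf4 also with the batch term (adjusted p = 0.0392 and 0.0274, edgeR). Egr3 passed only without BM-Treg replicate 1 and without SP-Treg replicate 4 (adjusted p = 0.0579 to 0.0819 without the other libraries), and Myc only without SP-Treg replicates 1 or 2 (0.0521 to 0.119), and 3 genes of the list passed without BM-Treg replicate 2, BM-Treg replicate 4 or SP-Treg replicate 3. Without BM-Treg replicate 3, Nr4a3 and Tnfrsf9 passed in place of Egr3 and Myc.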

How the data were processed

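SPIA-amplified Treg RNA was sequenced as single-end reads of 80 nt. Per the submitters' processing notes, cutadapt 1.9, STAR 2.5.2a and RSEM 1.2.30 were used with GRCm38; whether reads were counted by strand was not given in the sources used here. The authors deposited expected counts per gene and per transcript, not normalised between libraries, and FPKM values. Columns were assigned to libraries by their names. Expected counts were rounded, filtered with filterByExpr, normalised by TMM and tested between 4 BM-Treg and 4 SP-Treg libraries with the robust quasi-likelihood test of edgeR 4.0.16 (R 4.3.3), with Benjamini-Hochberg adjustment at 0.05. DESeq2 1.42.0, limma 3.58.1, other filters, a batch term, a replicate block and the omission of libraries were alternatives. The SE was the log2 fold change divided by the root of F. Transcript shares were tested by exact permutation. No label says that a replicate number marks a shared animal. The model fits were tested on simulated data. The deposited FPKM values entered level comparisons and an alternative test.

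The members and lists were chosen with earlier results of these data known, and the promoter motifs after the data were seen. Values in every library are given for members that passed or whose libraries did not overlap, and other list genes are named where they passed. Nr4a1 was named in addition, after its values were seen. The libraries were taken as separate biological replicates, as the study's methods describe them, although a legend of the study gives fewer per tissue. The spleen library names carry pairs of numbers that no source used here explains, so whether these libraries share or pool animals is not known, and the SDs and p-values assume that they do not. No duplicate library was found. Amplified reads are not independent molecules, so p-values cover the spread between these libraries.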

Additional observations from a re-analysis of the deposited data

Results flagged for a closer look

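In 6 of the 72 sets of 4 libraries (36 members in each tissue), a single library stood apart from the other 3 by Dixon's criterion at 95%, and chance alone marks about 5% of such sets. Lat was at 219.2 CPM in BM-Treg replicate 4 (135.6 to 149.2 CPM in the others) and at 167.5 CPM in SP-Treg replicate 2 (150.1 to 151.2 CPM). Themis was low in SP-Treg replicate 1, at 12.23 CPM beside 23.96 to 25.54 CPM. Tespa1 was high in SP-Treg replicate 4, at 36.01 CPM beside 22.67 to 24.6 CPM, and in the same library Ubash3b was low, at 102.6 CPM beside 136.6 to 138.5 CPM. Icos was low in BM-Treg replicate 1, at 927.2 CPM beside 1130 to 1169 CPM.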

How the results depend on the processing

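Ptpn22, Ptpn6, Fyn, Zap70, Ptprc, Cd28, Icos, Sh2d2a and Ubash3b kept their direction under every alternative tried. As the libraries of these 9 did not overlap in CPM, leaving out libraries or adding the batch term could hardly have reversed it. The number of members called was 9, and 4 on FPKM (limma-trend, log2 scale) with either pseudocount, 1 or 0.1, 0 with the batch term and 0 in batch 3 alone, 4 without SP-Treg replicates 1 and 2 together (chosen after seeing the data), 12 with DESeq2, which added Lck, Cblb and Rasgrp1, and 4 to 9 when single libraries were left out. The replicate numbers did not pair the libraries (correlations of -0.18 to 0.06 between deviations), and with the replicate block 6 members and 948 genes passed. Over all genes 1172 passed, 1703 with DESeq2 (45.9% of them higher, against 42.6%), 765 and 728 on FPKM (63% and 62.4% higher), 258 with the batch term, 79 in batch 3 alone and 690 to 1048 without single libraries. The TCR-induced genes called were 5, and 3 and 3 on FPKM, 2 with the batch term, 1 in batch 3 alone and 3 to 5 without single libraries. The other pathway genes called were 7, and 4 and 4 on FPKM, 3 with the batch term, 1 in batch 3 alone and 5 to 7 without single libraries. The median log2 fold change of the activating members was -0.031 with the batch term, -0.013 in batch 3 alone and -0.150 to -0.045 without single libraries, and that of the inhibitory members was 0.217 and 0.219 on FPKM, 0.155 with the batch term, 0.174 in batch 3 alone and 0.059 to 0.158 without single libraries. The balance was -0.163 with the median over members and -0.117 to -0.074 without single libraries. It was -0.088 with Cd6 and Sh2d2a classed as inhibitory and Ptprc as activating. The cause of these shifts was not tested.

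Some members changed sign, none of them called. On FPKM these were Cd247 (0.00), Csk (0.00), Lcp2 (0.10), Nfatc3 (0.03) and Plcg1 (0.09) with either pseudocount. With the batch term and in batch 3 alone they were Cd3e (0.07 and 0.09), Lcp2 (0.07 and 0.09), Nfatc3 (0.01 and 0.03), Tespa1 (0.09 and 0.11) and Vav1 (0.29 and 0.31). Without SP-Treg replicates 1 and 2 together they were Dgka (-0.12), Nfatc3 (0.07), Plcg1 (0.00) and Prkcq (-0.12). Themis was at 0.02 with limma-voom and with at least 10 counts in every library, and at 0.01 with no filter, with the replicate block and with libraries thinned to the smallest total (chosen after seeing the data). Without single libraries the ranges were -0.20 to 0.02 for Cd3e, -0.03 to 0.08 for Cd5, -0.11 to 0.01 for Csk, -0.06 to 0.20 for Dgka, -0.14 to 0.14 for Lat, -0.12 to 0.08 for Lcp2, -0.10 to 0.01 for Nfatc3, -0.10 to 0.02 for Plcg1, -0.05 to 0.11 for Prkcq, -0.19 to 0.11 for Themis and -0.17 to 0.03 for Vav1.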
